A study of Homo sapiens with 9 samples.

Results

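Neutrophil serine proteases and other products of granulocyte precursors were followed in MV4;11 cells, a human acute myeloid leukaemia line that carries a rearranged MLL gene. The 9 genes were chosen by name from the deposited count table of 26485 gene symbols: ELANE, PRTN3, CTSG, AZU1, MPO, MS4A3, RNASE2, PRSS57 and CXCR2. The choice was made with earlier results of these data known, so counts and medians set beside all tested genes below are a description. All 9 were in the table and passed the filter on low counts, with 42 counts or more in each library. RNA was sequenced from untreated cells of 3 MYC genotypes with 3 libraries each: the parental line, cells whose MYC carries K148Q, and cells whose MYC carries K148R. In the substitutions a lysine of MYC, the transcription factor that drives growth, is replaced by glutamine, often used to imitate an acetylated lysine, or by arginine, which keeps the charge and cannot be acetylated. The sources at hand do not say how the substitutions were made or whether each genotype is a single clone, so a difference between genotypes cannot be told apart from a difference between the lines that carry them.

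Azurophil granules, also called primary granules, are filled at the promyelocyte stage, when a granulocyte precursor transcribes their contents at a high rate before it matures and stops. They hold the serine proteases neutrophil elastase, proteinase 3, cathepsin G and PRSS57, the inactive protease homologue azurocidin, and the haem enzyme myeloperoxidase. The proteases are made as proenzymes, trimmed to the active form by cathepsin C, packed on the proteoglycan serglycin and held in check in the cytosol by serpins. C/EBP factors, PU.1 and MYB are the textbook activators of these genes.

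The members lie on 5 chromosomes, and 4 of the protease family genes sit together on the short arm of chromosome 19 (GENCODE v29, GRCh38). PRSS57 lies at 685546 to 695498 on the minus strand, AZU1 at 825097 to 832018, PRTN3 at 840960 to 848175 and ELANE at 851014 to 856247, the last 3 on the plus strand within 31.2 kb. CTSG is on chromosome 14 (24573522 to 24576260), as is RNASE2 (20955452 to 20956436). MPO is on chromosome 17 (58269856 to 58280935), MS4A3 on chromosome 11 (60056587 to 60071128) and CXCR2 on chromosome 2 (218125289 to 218137253). The only annotated gene that overlaps a member is RPS2P52, a ribosomal protein pseudogene inside PRSS57 on the other strand.

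RefSeq promoter sequences (GRCh38.p14) were at hand for 7 of the 9 members (not ELANE and MPO), and those of PRSS57, AZU1, PRTN3 and CTSG are shown because these genes rose or fell to different degrees in the same cells. Each is the 250 bases before the RefSeq start site, 5′ to 3′ on the strand of the gene. RefSeq starts differ from the GENCODE ends given above, and the AZU1 window lies wholly inside the GENCODE span of AZU1. Capitals mark GAGGAA, the core letters bound by PU.1, and TTNNGNAA, a loose form of the C/EBP site, each read on both strands.
PRSS57 (chr19:695453-695702, - strand): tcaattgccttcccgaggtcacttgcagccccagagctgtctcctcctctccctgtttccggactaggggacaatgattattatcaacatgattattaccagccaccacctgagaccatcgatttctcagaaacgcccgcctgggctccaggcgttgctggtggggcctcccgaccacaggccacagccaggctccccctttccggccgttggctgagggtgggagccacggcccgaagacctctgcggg
AZU1 (chr19:827587-827836, + strand): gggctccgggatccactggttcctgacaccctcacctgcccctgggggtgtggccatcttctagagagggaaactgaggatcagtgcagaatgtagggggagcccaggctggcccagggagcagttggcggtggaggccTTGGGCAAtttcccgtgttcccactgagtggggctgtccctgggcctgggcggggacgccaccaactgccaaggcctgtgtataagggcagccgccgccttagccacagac
PRTN3 (chr19:840749-840998, + strand): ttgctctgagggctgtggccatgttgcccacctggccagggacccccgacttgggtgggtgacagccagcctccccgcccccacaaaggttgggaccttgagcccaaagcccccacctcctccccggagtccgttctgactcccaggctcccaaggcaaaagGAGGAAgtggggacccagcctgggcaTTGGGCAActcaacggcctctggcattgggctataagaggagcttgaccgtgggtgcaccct
CTSG (chr14:24576251-24576500, - strand): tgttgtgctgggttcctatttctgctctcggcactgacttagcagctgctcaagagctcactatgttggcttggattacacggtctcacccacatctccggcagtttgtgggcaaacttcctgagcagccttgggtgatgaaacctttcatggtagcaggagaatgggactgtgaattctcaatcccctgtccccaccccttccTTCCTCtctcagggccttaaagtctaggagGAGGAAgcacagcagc
The PRTN3 window holds a GAGGAA that begins 88 bases before the start and a TTGGGCAA that begins 62 bases before it. The AZU1 window holds the same TTGGGCAA, 111 bases before the start, and no GAGGAA. CTSG has GAGGAA in either orientation, 46 and 16 bases before the start, and no TTNNGNAA, while PRSS57 has neither. Among 35116 promoters of the same length, 23.6% hold GAGGAA and 33.2% hold TTNNGNAA, against 2 and 4 of the 7 members. CACGTG, the canonical MYC E-box, was in none of the 7 member windows and in 6.34% of all promoters. Other letters were searched but are not marked. AACNG for MYB was in 7 member windows (70.6% of all promoters) and TGTGGT for RUNX in 2 (11%). GATAA for GATA factors was in 2 (20.4%) and TATAAA in 0 (10.7%). These are matches of letters, not sites shown to be bound.

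Values below are normalised counts (CPM, counts scaled to a common library size with TMM factors), given per library in the order of replicates 1 to 3 and as mean ± SD (n = 3). Library totals ran from 13747087 to 18938391 counts. Differences are log2 fold changes with their standard error (SE) from edgeR's quasi-likelihood test, and a gene is called changed at a Benjamini-Hochberg adjusted p under 0.05 over all 12845 genes tested. The labels do not say whether libraries of a genotype came from separate cultures, so the p-values measure the spread between these libraries. K148Q replicate 3 stood apart from the other K148Q libraries, and its deviation followed transcript GC content (Spearman rho -0.75 over 12140 genes, a description, since genes do not replicate each other). All 12 genes listed as markers of the leukaemia line were detected in every library, with sums of 1573 to 1598 CPM in parental, 1771 to 1818 CPM in K148Q and 2028 to 2119 CPM in K148R libraries. Among them PTPRC (CD45) stood at 86.3, 107 and 316 CPM, CD4 at 226, 376 and 743 CPM, CD86 at 0.443, 0.717 and 26.9 CPM and FLT3 at 652, 676 and 301 CPM in the order parental, K148Q, K148R. CD86 passed the filter on low counts only through the K148R libraries and had to be higher there.

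In K148Q cells 7 of the 9 members rose against parental cells, MPO fell and CXCR2 was not called. In the background 53.3% of tested genes were called in this comparison, 27% higher and 26.3% lower. The median log2 fold change of the members was 1.49, and that of all tested genes -0.01. In K148R cells 7 members rose, and MPO and PRSS57 fell, where 75.1% of tested genes were called, 37.8% higher and 37.3% lower. The members' median there was 0.95. Between the mutants 3 members were higher and 6 lower in K148R than in K148Q cells, with 71% of tested genes called, 36.6% higher and 34.5% lower. The groups did not overlap for 8, 9 and 9 members in these 3 comparisons, and for 59.5%, 80.6% and 71.4% of all tested genes. The comparisons share libraries and are not independent of each other. In bulk RNA a change in the number of expressing cells and a change in RNA per cell cannot be told apart.

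**Figure D1:**
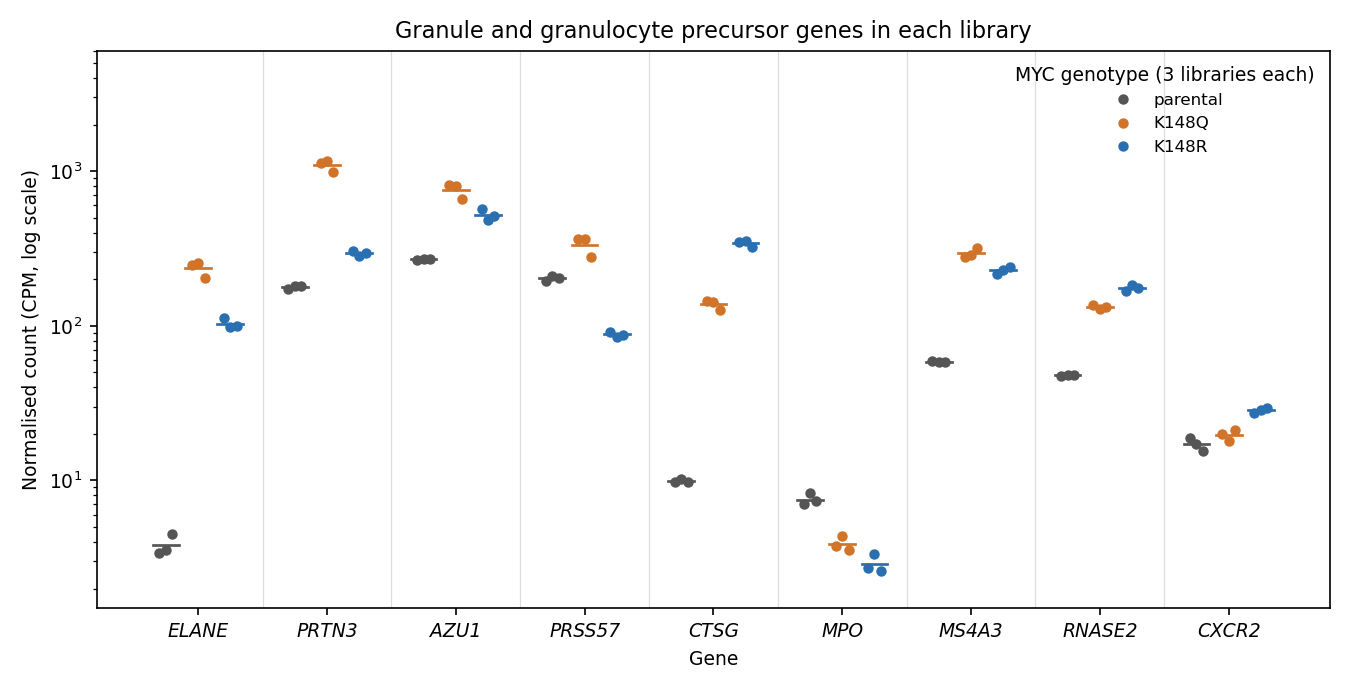
Normalised counts (CPM, log scale) of the 9 genes in each of the 9 libraries, with points for libraries and a line for the mean of 3. ELANE and CTSG reach at most 10.3 CPM in parental libraries and at least 97.9 CPM in libraries of the mutants, while MPO is highest in the parental libraries.

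ELANE encodes neutrophil elastase, the protease mutated in many cases of severe congenital neutropenia. Its level was 3.38, 3.54 and 4.53 CPM in parental libraries, 246, 256 and 204 CPM in K148Q libraries, and 112, 97.9 and 99.8 CPM in K148R libraries. The 3 genotypes did not overlap, and K148Q was highest. The mean rose from 3.82 ± 0.622 to 235 ± 27.6 CPM in K148Q cells, a log2 fold change of 5.94 (SE 0.125, edgeR adjusted p = 8e-14), and to 103 ± 7.57 CPM in K148R cells, a log2 fold change of 4.75 (SE 0.126, adjusted p = 1.2e-13). K148R cells had 2.28-fold less than K148Q cells (log2 fold change -1.19, SE 0.0882, adjusted p = 1.5e-08). By size of rise ELANE ranked 13 among the 12845 tested genes in K148Q cells and 130 in K148R cells.

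PRTN3 encodes proteinase 3, the autoantigen of granulomatosis with polyangiitis. It had 173, 182 and 180.0 CPM in parental, 1134, 1168 and 980.4 CPM in K148Q and 305, 283 and 295 CPM in K148R libraries. The order was the same as for ELANE, but the K148R libraries lay much nearer to the parental ones. The log2 fold change was 2.62 in K148Q cells (SE 0.066, edgeR adjusted p = 4.9e-13) and 0.72 in K148R cells (SE 0.063, adjusted p = 7.3e-08). The mutants differed from each other by -1.90 on the log2 scale (SE 0.064, adjusted p = 1.7e-12), 3.72-fold lower in K148R cells.

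AZU1 encodes azurocidin, a bactericidal protein with the protease fold but without catalytic activity. It was already abundant in parental libraries at 268, 269 and 272 CPM, and stood at 816, 799 and 657 CPM in K148Q and 568, 484 and 513 CPM in K148R libraries. All 3 genotypes were again separate and in the order of PRTN3. The rise was 1.49 on the log2 scale in K148Q cells (SE 0.078, edgeR adjusted p = 2.8e-09) and 0.95 in K148R cells (SE 0.078, adjusted p = 5.9e-08). K148R lay 0.54 below K148Q on that scale, written as a log2 fold change of -0.54 (SE 0.077, adjusted p = 2.2e-05).

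PRSS57 encodes a serine protease of azurophil granules also known as neutrophil serine protease 4, which cleaves after arginine. It moved in opposite directions in the mutants: 193, 209 and 205 CPM in parental, 362, 363 and 279 CPM in K148Q, and 91.2, 85.1 and 87.7 CPM in K148R libraries. Every K148Q library was above, and every K148R library below, every parental library. It rose by 0.73 on the log2 scale in K148Q cells (SE 0.085, edgeR adjusted p = 7.9e-06) and fell by 1.20 in K148R cells (SE 0.088, adjusted p = 1.6e-08). The test between the mutants gave -1.93 (SE 0.089, adjusted p = 1.1e-10), 3.80-fold lower in K148R cells.

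CTSG encodes cathepsin G, a protease with chymotrypsin-like specificity. Its level was 9.77, 10.3 and 9.83 CPM in parental, 145, 143 and 127 CPM in K148Q and 350.0, 351 and 325 CPM in K148R libraries. Here the order of the mutants was turned round, with K148R highest. The log2 fold change was 3.79 in K148Q cells (SE 0.077, edgeR adjusted p = 6.6e-14) and 5.10 in K148R cells (SE 0.078, adjusted p = 1.1e-15). K148R exceeded K148Q cells 2.48-fold (log2 fold change 1.31, SE 0.061, adjusted p = 7.3e-11).

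MPO encodes myeloperoxidase, which makes hypochlorous acid and is the classical diagnostic marker of the myeloid lineage. It was low throughout, with 6.99, 8.25 and 7.33 CPM in parental, 3.78, 4.38 and 3.53 CPM in K148Q and 2.72, 3.32 and 2.60 CPM in K148R libraries. It was the only member below the parental level in both mutants, and neither mutant overlapped the parental libraries. MPO fell by 0.95 on the log2 scale in K148Q cells (SE 0.149, edgeR adjusted p = 9.9e-05) and by 1.38 in K148R cells (SE 0.155, adjusted p = 1.1e-06). The difference between the mutants, -0.44 (SE 0.170, adjusted p = 0.031), rested on 42 to 64 counts per library. It lost the call with DESeq2 (adjusted p = 0.089), without K148Q replicate 2 (adjusted p = 0.12), without K148R replicate 1 (adjusted p = 0.085) and without K148R replicate 3 (adjusted p = 0.091).

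MS4A3 encodes a membrane protein of the CD20 family that marks committed granulocyte and monocyte progenitors. It had 59.0, 58.3 and 58.2 CPM in parental, 280.1, 287 and 320.4 CPM in K148Q and 216, 230.5 and 239.5 CPM in K148R libraries. Both mutants were far above the parental libraries and lay close to each other without overlapping. The log2 fold change was 2.34 in K148Q cells (SE 0.065, edgeR adjusted p = 1.5e-12) and 1.97 in K148R cells (SE 0.065, adjusted p = 1.2e-12), and -0.37 between the mutants (SE 0.0605, adjusted p = 6.4e-05).

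RNASE2 encodes the eosinophil-derived neurotoxin, a secreted ribonuclease also made by neutrophil precursors and monocytes. It had 47.5, 48.3 and 48.3 CPM in parental, 137, 128 and 132 CPM in K148Q and 167, 184 and 174 CPM in K148R libraries. As for CTSG, K148R was highest and the genotypes did not overlap. The log2 fold change was 1.46 in K148Q cells (SE 0.060, edgeR adjusted p = 9.9e-11) and 1.86 in K148R cells (SE 0.060, adjusted p = 9.1e-13), with 0.40 between the mutants (SE 0.056, adjusted p = 1.5e-05). Its paralogue RNASE3, the eosinophil cationic protein, lies 63104 bases away and is close in sequence, so some reads may be shared. RNASE3 was at 9.40 ± 1.10, 19.4 ± 1.60 and 21.6 ± 0.700 CPM in parental, K148Q and K148R cells.

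CXCR2 encodes a receptor for CXCL8 and related chemokines, used by neutrophils to leave the marrow. It had 18.9, 17.2 and 15.6 CPM in parental, 19.9, 17.9 and 21.3 CPM in K148Q and 27.2, 28.4 and 29.5 CPM in K148R libraries. Parental and K148Q libraries overlapped, and every K148R library was above them. In K148Q cells the log2 fold change was 0.19, with a 95% interval of -0.02 to 0.41 (edgeR adjusted p = 0.12). In K148R cells it was 0.72 against parental (SE 0.098, adjusted p = 9.4e-06) and 0.53 against K148Q cells (SE 0.097, adjusted p = 2e-04). CXCR1, the neighbouring receptor gene, had 1, 4 and 5 counts in all in the 3 genotypes.

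**Figure D2:**
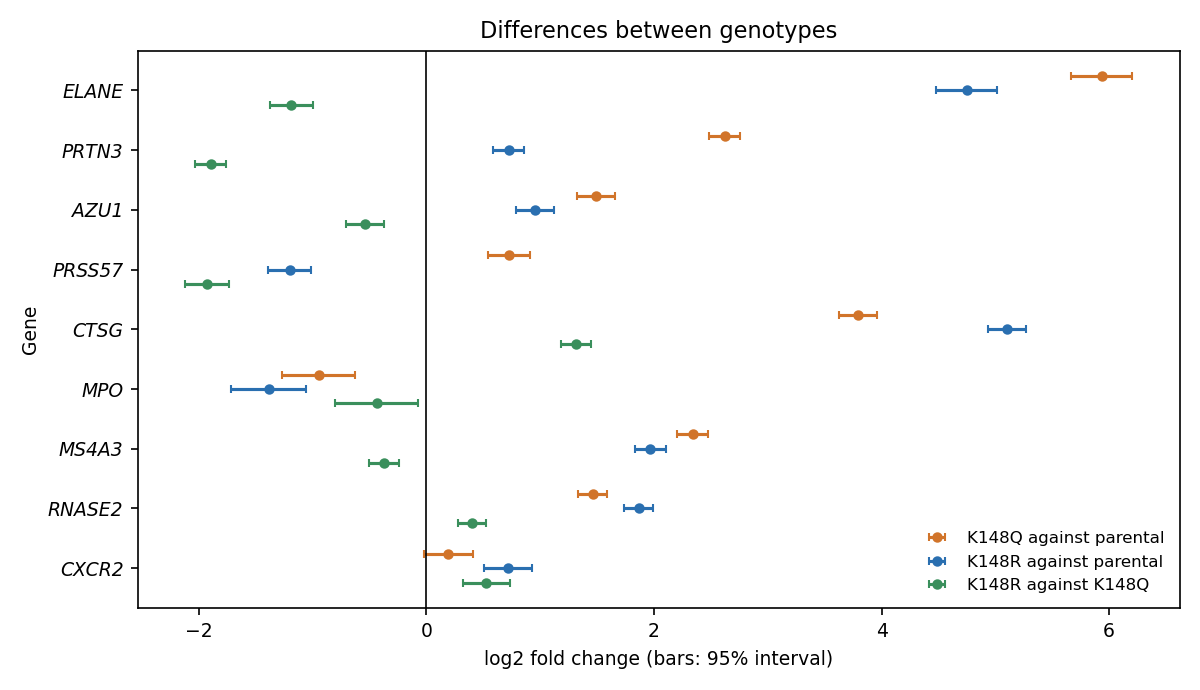
Log2 fold changes of the 9 genes in the 3 comparisons, with 95% intervals from the edgeR fit. The green points (K148R against K148Q) fall below 0 for ELANE, PRTN3, AZU1, PRSS57, MPO and MS4A3 and above 0 for CTSG, RNASE2 and CXCR2.

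The members fell into several orders of level. ELANE, PRTN3, AZU1 and MS4A3 ran from K148Q over K148R down to parental cells. CTSG, RNASE2 and CXCR2 ran from K148R over K148Q to parental cells, with no call between the last 2 for CXCR2. PRSS57 ran from K148Q over parental to K148R cells, and MPO from parental over K148Q to K148R cells, its last step being the unstable call given above. All 4 of the chromosome 19 members were highest in K148Q cells. Summed over these 4 genes the level was 2421 ± 262 CPM with K148Q, 1007 ± 63.9 CPM with K148R and 654 ± 14.2 CPM without a substitution.

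GC content moved with the spread inside the K148Q group. The 4 chromosome 19 members have GC-rich transcripts (PRSS57 68.0%, ELANE 66.9%, PRTN3 66.2% and AZU1 64.8%, against a median of 49.6% over tested genes). In K148Q replicate 3 they were at 0.767, 0.812, 0.852 and 0.814 times the mean of the other K148Q libraries. MS4A3, at 42.0% GC, was at 1.13 times that mean. CXCR2 (49.1% GC) was at 1.13, RNASE2 (46.2%) at 1.00, CTSG (55.7%) at 0.881 and MPO (59.9%) at 0.866 times it. The members thus did not keep strictly to the order of GC content. Without this library the K148Q rises were as large or larger for the GC-rich genes, at 6.04 for ELANE, 2.70 for PRTN3, 1.59 for AZU1 and 0.85 for PRSS57 on the log2 scale, and 2.29 for MS4A3.

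Divided by exon length, levels can be set against each other within a genotype. The length is that of all annotated exons of a gene merged, 1783 bases for AZU1 and 1090 for PRSS57, and the ranks depend on it. Before the division AZU1 was above PRSS57 in parental cells, at 270 ± 1.81 against 202 ± 7.81 CPM. In parental cells PRSS57 led with 186 ± 7.17 CPM per kilobase, ahead of PRTN3 at 155 ± 4.25 and AZU1 at 151 ± 1.02, which lay within their spread of each other. ELANE, at 3.71 ± 0.605 CPM per kilobase, and CTSG, at 7.25 ± 0.199, were minor there. In K148Q cells PRTN3 led with 955 ± 87.4 CPM per kilobase, followed by AZU1 with 425 ± 48.9. In K148R cells AZU1 (293 ± 24.0), PRTN3 (257 ± 9.66), CTSG (249 ± 10.7) and RNASE2 (232 ± 11.3 CPM per kilobase) came close together, PRTN3 and CTSG within their spread of each other. MPO was the least abundant member in every genotype, from 2.13 ± 0.184 CPM per kilobase in parental to 0.817 ± 0.109 in K148R cells.

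The make-up of the summed message changed with these levels. PRSS57 made up 30.8% of the 9 genes' summed CPM per kilobase in parental cells, 13.1% in K148Q and 6.07% in K148R cells. PRTN3 took 25.8%, 40.8% and 19.3% in the same order, and CTSG 1.20%, 4.29% and 18.7%. ELANE went from 0.617% to 9.77% and 7.55%. These shares are computed from group means and rest on the same merged exon lengths.

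**Figure D3:**
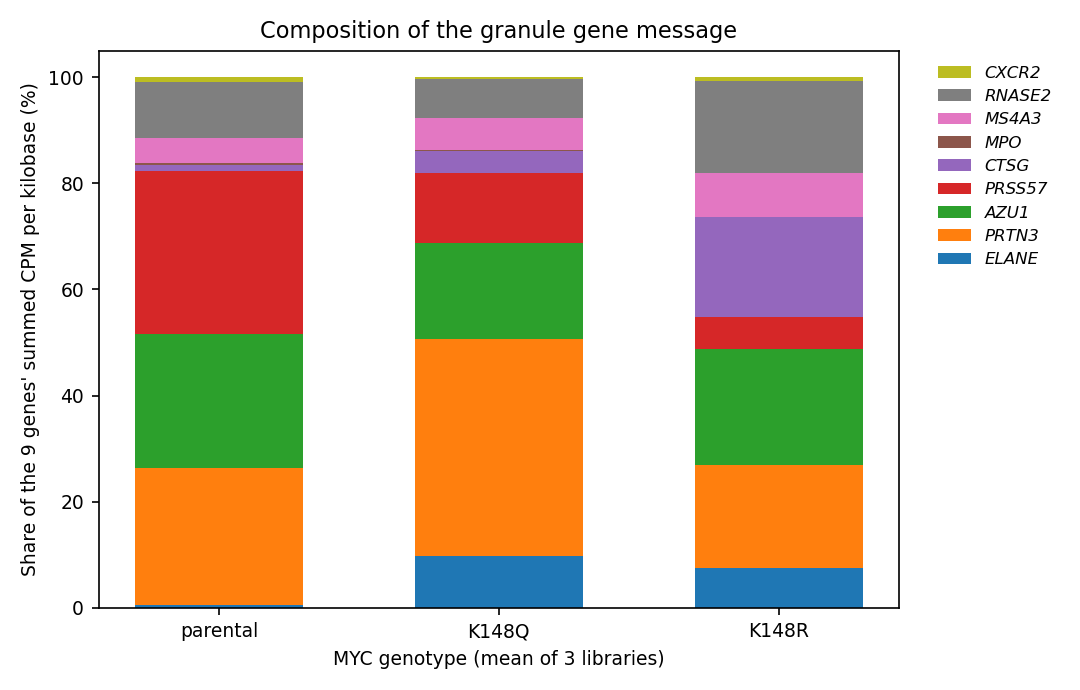
Share of each gene in the summed CPM per kilobase of the 9 genes (%), from the mean of 3 libraries per genotype. PRSS57 shrinks from 30.8% in parental to 6.07% in K148R cells, and CTSG widens from 1.20% to 18.7%.

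Genes beside the members on the chromosome were compared with them, taking the 3 nearest protein-coding genes on each side. Around the chromosome 19 members 8 other genes were tested. In K148Q cells 4 were called higher and 2 lower, beside 27% and 26.3% of all tested genes. In K148R cells 5 were called higher and 2 lower, beside 37.8% and 37.3%. The 5 include MISP, which passed the filter only through the K148R libraries and had to be higher there. CFD, which encodes complement factor D (adipsin), starts 3396 bases beyond the end of ELANE. It is also counted on the list of other primary granule and precursor genes below. CFD rose from 114 ± 4.46 to 360 ± 57.5 CPM in K148Q and 676 ± 28.2 CPM in K148R cells. Unlike ELANE and PRTN3 it was higher in K148R than in K148Q cells (log2 fold change 0.91, SE 0.092, edgeR adjusted p = 1.5e-06). MED16, a Mediator subunit gene next to CFD, changed by 0.38 and 0.52 on the log2 scale in K148Q and K148R cells (edgeR adjusted p = 0.0068 and 3.4e-04). PTBP1, a splicing regulator gene upstream of AZU1, changed by 0.17 and -0.21 (adjusted p = 0.02 and 0.0035). FSTL3, a follistatin-like gene and the closest neighbour of PRSS57 at 2147 bases, changed by -0.53 in K148Q and 0.97 in K148R cells (edgeR adjusted p = 0.0019 and 9.3e-07), opposite to PRSS57 in both mutants. MISP, between PRSS57 and PTBP1, had 8 counts over the parental group, 7 over K148Q and 196 over K148R, and passed the filter only through the last. PALM, a membrane protein gene on the other side of PRSS57, fell from 13.1 to 0.262 and 1.06 CPM.

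**Figure D4:**
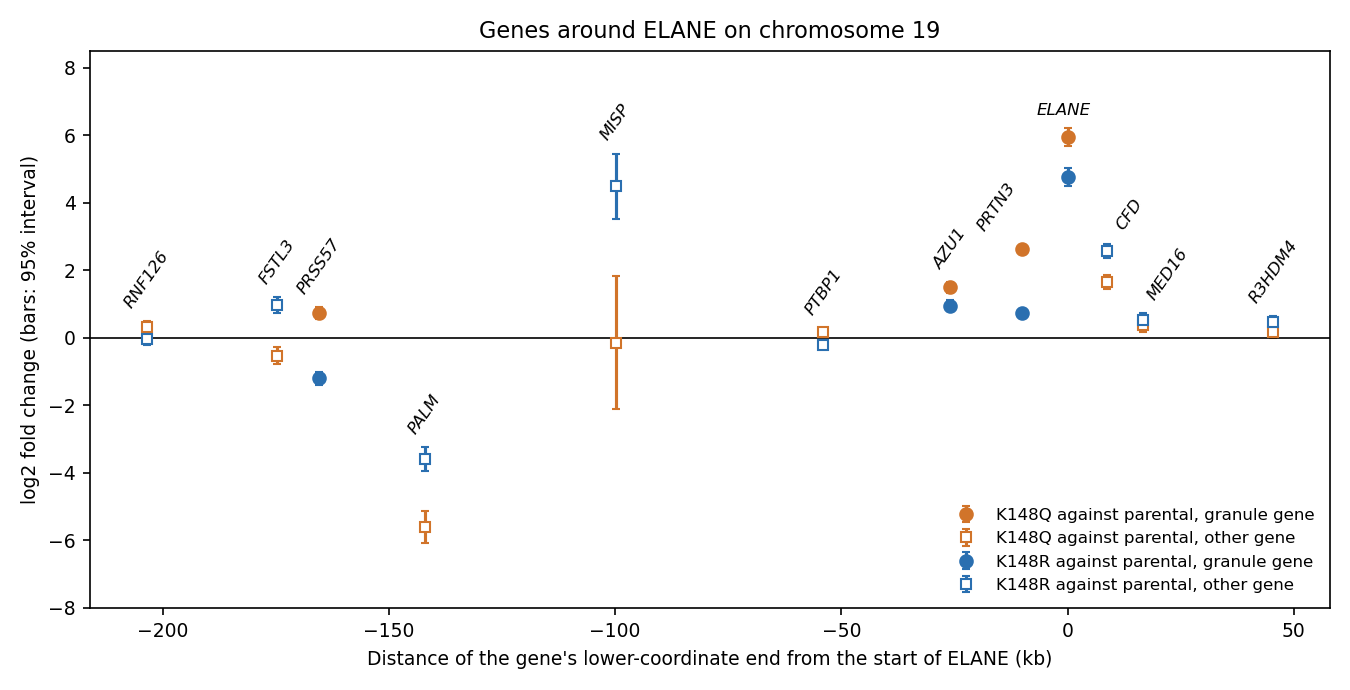
Log2 fold changes against parental cells, with 95% intervals, of the tested genes around ELANE on chromosome 19, by distance in kilobases from the start of ELANE. ELANE and PRTN3 stand above their neighbours in K148Q cells, and MED16 and PTBP1 lie within 0.52 of 0 in either mutant.

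Several members have relatives beside them on the chromosome, which were silent in some families and abundant in others. Beside CTSG, the granzyme genes GZMH and GZMB had 0 counts in parental and K148Q cells, and CMA1, the mast cell chymase, had 0 counts in both and 1.05 CPM in K148R cells. Beside MPO, the lactoperoxidase gene LPO rose from 1.25 to 2.94 and 11.3 CPM in K148Q and K148R cells (edgeR adjusted p = 0.0015 and 5.1e-09) while MPO fell. EPX, the eosinophil peroxidase gene in the same cluster, stayed at 0.268 CPM or less. Beside MS4A3, MS4A6A was at 452, 323 and 413 CPM and MS4A4A at 46.5, 24.9 and 13.0 CPM in parental, K148Q and K148R cells, both lower in the mutants, while the nearer OOSP2 had 0 counts and MS4A2 at most 0.327 CPM. METTL17, the closest neighbour of RNASE2, was at 65.8, 63.8 and 40.1 CPM. RNASE6, a further ribonuclease gene beside RNASE2, was at 37.4, 13.3 and 28.1 CPM. Over all members 24 neighbours were tested. In K148Q cells 7 were called higher and 10 lower, beside 27% and 26.3% of all tested genes. In K148R cells 13 were called higher and 10 lower, beside 37.8% and 37.3%. CMA1 and MISP, among the higher in K148R cells, passed the filter only through those libraries and had to be higher. These counts therefore describe the tested genes only.

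Other genes of the primary granule and of granulocyte precursors did not follow a common direction. Of 20 on the list 15 were tested. In K148Q cells 10 were called higher and 5 lower (median log2 fold change 0.52), beside 27% and 26.3% of all tested genes. In K148R cells 8 were called higher and 7 lower (median 0.15), beside 37.8% and 37.3%. LYZ, which encodes lysozyme, rose from 161 ± 2.88 to 491 ± 64.5 and 1649 ± 21.5 CPM. SRGN, which encodes the granule proteoglycan serglycin, rose from 2286 ± 18.7 to 6964 ± 747 CPM in K148Q cells and fell to 1729 ± 20.1 CPM in K148R cells (edgeR adjusted p = 4.2e-11 and 2e-05). The direction in each mutant was that of PRSS57, and so was that of GUSB, the lysosomal beta-glucuronidase gene, at 155 ± 3.98, 222 ± 9.23 and 60.0 ± 3.98 CPM. IGLL1, a surrogate light chain gene, fell from 67.4 ± 2.15 to 2.28 ± 0.322 and 1.38 ± 0.683 CPM.

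BPI, the bactericidal granule protein related to azurocidin in function, was named after its values were seen and rose from 0.929 ± 0.0843 to 5.43 ± 0.633 and 3.25 ± 0.513 CPM. The defensin genes DEFA1 and DEFA3, products of late promyelocytes, had 0 counts in all 9 libraries, and DEFA4 had 3 counts in K148Q cells and 0 elsewhere. A count of 0 over a group allows up to 0.0636 CPM for the parental group, 0.0651 for K148Q and 0.0609 for K148R. This floor of 3 counts covers counting error only. It does not cover reads shared between genes alike in sequence, whose handling the processing notes do not give.

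Among 22 genes that process, pack, sort or inhibit the proteases, 17 were tested. CTSC, SRGN and CST7 are also on the list of other primary granule and precursor genes and are counted on both. In K148Q cells 9 were called higher and 3 lower, beside 27% and 26.3% of all tested genes. In K148R cells 9 were called higher and 5 lower, beside 37.8% and 37.3%. A2M, a protease inhibitor gene counted as higher in K148R cells, passed the filter only through the K148R libraries and had to differ, so these counts are a description of the tested genes. CST3, the cystatin C gene, rose from 110 ± 0.993 to 295 ± 34.6 and 1624 ± 74.2 CPM. SERPINB6, whose product inhibits cathepsin G, rose to 112 ± 1.88 CPM in K148Q cells from 59.0 ± 1.33 in parental cells, and fell to 49.4 ± 1.06 CPM in K148R cells (edgeR adjusted p = 9.5e-09 and 0.0013). SERPINA1, which encodes the elastase inhibitor alpha-1 antitrypsin, rose from 7.10 ± 0.0150 to 11.1 ± 0.938 and 28.7 ± 2.91 CPM. Named after their values were seen, SERPINB1, an inhibitor of elastase, proteinase 3 and cathepsin G, went from 72.6 ± 2.56 to 157 ± 7.72 and 120 ± 4.95 CPM. CTSC, the activating peptidase, went from 171 ± 3.05 to 197 ± 9.56 and 225 ± 5.91 CPM, a rise of 0.21 and 0.40 on the log2 scale (adjusted p = 0.0046 and 7.3e-06).

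All 18 listed transcription factors of granulocytic and related development were tested. In K148Q cells 9 were called higher and 3 lower, the latter 5 without K148Q replicate 3, and in K148R cells 11 higher and 2 lower. Of all tested genes 27% were called higher and 26.3% lower in K148Q cells, and 37.8% and 37.3% in K148R cells. GFI1B and EGR2 passed the filter only through the K148R libraries and LEF1 only through the parental ones, so they had to differ and the counts describe the tested genes only. GFI1, a repressor needed for neutrophil maturation, rose from 132 ± 2.26 to 279 ± 6.04 and 255 ± 5.54 CPM. CEBPB rose from 17.7 ± 0.437 to 49.0 ± 2.78 and 31.1 ± 1.81 CPM, in the order of ELANE and PRTN3. GATA2, a factor of stem cells, mast cells and basophils, was at 1.43 ± 0.528, 22.1 ± 1.67 and 1.57 ± 0.200 CPM in parental, K148Q and K148R cells, and CUX1 at 68.5 ± 3.56, 98.1 ± 4.42 and 142 ± 6.56 CPM.

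The textbook activators of the granule genes were named after their values were seen. CEBPA rose by 0.47 in K148Q and 0.64 in K148R cells on the log2 scale (edgeR adjusted p = 2.8e-05 and 3.3e-07), and SPI1, which encodes PU.1, by 0.70 and 0.74 (adjusted p = 3.9e-06 and 6.6e-07). MYB changed by 0.15 in K148Q cells (adjusted p = 0.017) and by -0.06 in K148R cells (adjusted p = 0.3). CEBPE, the factor of secondary granules, stayed low at 1.63 ± 0.406, 1.31 ± 0.510 and 2.03 ± 0.325 CPM and was not called in either comparison.

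**Figure D5:**
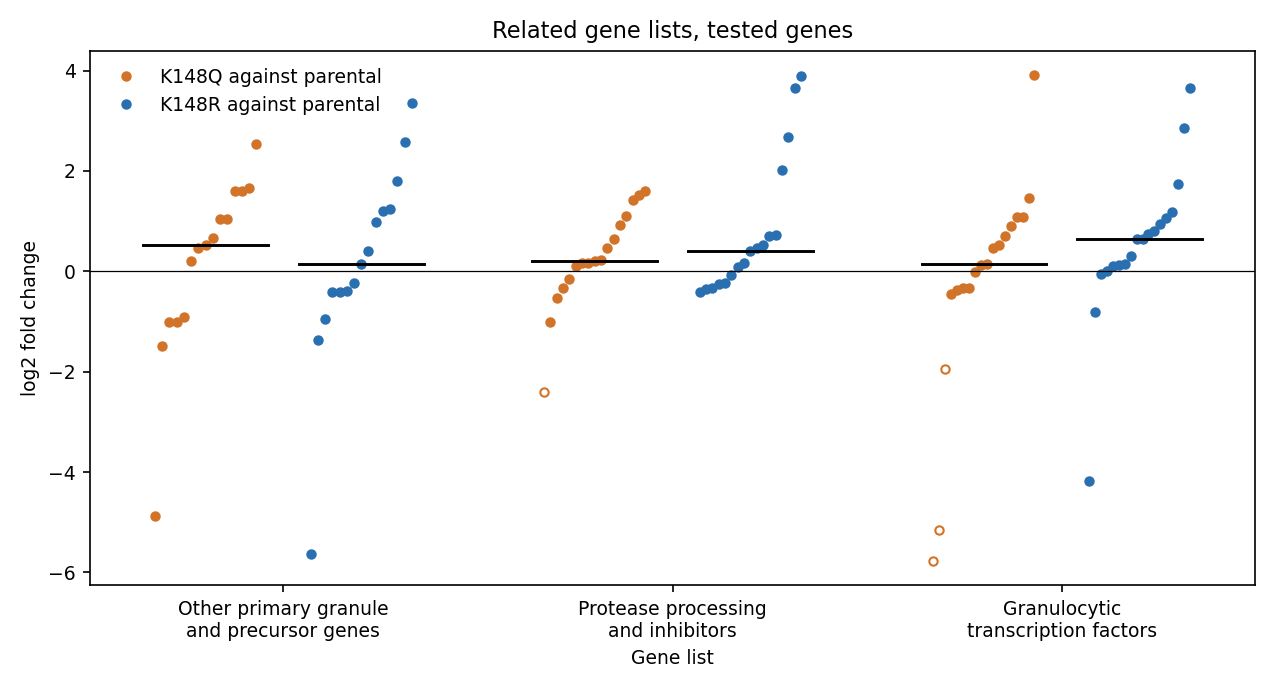
Log2 fold changes against parental cells of the tested genes on 3 related lists, with a black line at the median of each. Open points are genes with 3 counts or fewer in a group, whose fitted value depends on the prior count, and every list holds genes on both sides of 0 in both mutants.

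Genes of the later granules were mostly absent. Of 18 secondary and tertiary granule genes, 7 passed the filter on low counts, several of them only through the K148R libraries, so no count or median over them is given. CEACAM8, OLFM4, MMP8, PGLYRP1, CRISP3, ARG1 and CD177 had 0 counts in all 9 libraries. CHI3L1, a chitinase-like protein also made by macrophages, rose from 274 ± 2.39 to 1105 ± 102 and 1207 ± 15.7 CPM. MMP25, a membrane-bound metalloproteinase, was at 4.57 ± 0.817, 1.77 ± 0.433 and 71.1 ± 1.61 CPM. CEACAM6 had 2 counts over the parental group, 1 over K148Q and 428 over K148R, and CAMP had 6, 3 and 171.

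Among surface and chemokine genes of mature neutrophils, 5 of 15 were tested. CSF3R, the receptor for the granulocyte growth factor, rose from 46.1 ± 2.84 to 60.6 ± 7.42 and 93.6 ± 4.21 CPM. FPR2, a formyl peptide receptor, rose from 0.501 ± 0.245 to 3.30 ± 0.0458 and 11.9 ± 0.444 CPM. CXCL8, the ligand of CXCR2, fell from 5.44 ± 0.645 to 2.29 ± 0.389 CPM in K148Q cells and rose to 67.0 ± 4.42 CPM in K148R cells (edgeR adjusted p = 1.7e-05 and 6.9e-13). TNFRSF10C, a decoy receptor, had 4.53 ± 0.384, 9.05 ± 0.660 and 2.24 ± 0.319 CPM, the direction of PRSS57.

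Markers of other cells were read beside these values. Of 21 monocyte and macrophage markers 12 were tested, SIGLEC1 among them only through the K148R libraries, so no count of calls is given. The 21 summed to 682 to 703 CPM in parental, 737 to 788 CPM in K148Q and 1605 to 1659 CPM in K148R libraries. Like CTSG and RNASE2, the sum was highest in K148R cells. In K148Q cells its mean was 770 against 694 CPM in parental cells. Over the 12 tested markers the median log2 fold change in K148Q cells was 0.83, beside -0.01 for all tested genes. CTSG was at 138 CPM in K148Q against 9.96 CPM in parental cells, and RNASE2 at 132 against 48.0 CPM. S100A8 was at 0.0199 ± 0.0344, 3.04 ± 0.200 and 70.6 ± 1.00 CPM, and S100A9, its partner in calprotectin, at 0.144 ± 0.0621, 7.22 ± 1.10 and 51.8 ± 2.37 CPM. CX3CR1, a chemokine receptor, had 3.68 ± 0.316, 2.01 ± 0.487 and 87.0 ± 0.531 CPM, and SIGLEC1, a macrophage lectin, 0.0400 ± 0.0346, 0.556 ± 0.249 and 45.3 ± 1.68 CPM. The monocyte markers CD14, FCN1, VCAN, CD163 and MRC1 were at 0.353 CPM or less in each genotype. The part of the monocyte genes in the rise of CTSG and RNASE2 was not tested.

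Eosinophil, basophil and mast cell markers summed to 5.78 to 6.93 CPM in parental, 4.65 to 7.43 CPM in K148Q and 31.3 to 34.6 CPM in K148R libraries, with 4 of 15 tested. FCER1A, a chain of the IgE receptor, made up most of the K148R sum at 28.7 ± 2.11 CPM. CCR3 was at 4.25 ± 0.284, 1.90 ± 0.310 and 0.736 ± 0.211 CPM and PRG2 at 0.549 ± 0.158, 2.41 ± 0.923 and 0.528 ± 0.0796 CPM. PRG2 passed the filter only through the K148Q libraries and had to be higher there. The eosinophil genes PRG3 and CLC had 0 counts in all libraries, while RNASE2 was at 132 CPM or more in the means of both mutants. Of 14 lymphoid, erythroid and megakaryocyte markers 3 were tested, with sums of 8.22 to 9.77, 1.12 to 1.82 and 20.5 to 23.6 CPM. In these sums ITGA2B was at 6.998, 0.504 and 18.1 CPM and CD79A at 0.713, 0.366 and 2.28 CPM. CD79A passed the filter only through the K148R libraries and had to be higher there.

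Genes with the most similar changes were found by the Euclidean distance between log2 CPM values over the 9 libraries, each gene centred on its own mean. They are given as a description. The values were not scaled, so the distance takes in the size of a change as well as its shape. The nearest genes were LRPAP1 for AZU1 (distance 0.196), PRSS57's nearest was RAB44 (0.234), RNASE2's was SERPINF1 (0.251) and MS4A3's was ARSB (0.263). CXCR2 was nearest to NDUFA12 (0.213), MPO to CCNB1IP1 (0.354), PRTN3 to ID1 (0.412) and CTSG to CCL2 (0.414). ELANE had no close match by this distance, with BEX1 nearest at 2.11, although BCL2L10, at 2.97, had a Pearson correlation of 0.997 with it. By this distance no member had another member among its nearest 3 genes, and CEBPB was the third nearest to AZU1. Members far apart by it could still share the shape of their changes. Pearson r was 0.998 for CTSG and RNASE2 (distance 4.08) and 0.994 for ELANE and MS4A3 (distance 4.62), but -0.970 for CTSG and MPO. The closest pair of members by distance was MS4A3 and RNASE2, at 1.19.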

How the data were processed

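Whole-number read counts per gene symbol were deposited by the authors for 9 libraries. Per the submitters' processing notes, the tools were FastQC 0.11.7, HISAT2 2.0.5 and featureCounts 1.5.2 with GRCh38. The notes name no counting options, strand setting or annotation. Genes were filtered by edgeR 4.0.16 (filterByExpr, R 4.3.3), leaving 12845 genes, scaled by TMM and fitted with a robust quasi-likelihood model over all 9 libraries with a term per genotype. P-values were adjusted by Benjamini-Hochberg over all tested genes, and standard errors were derived from the log2 fold change and its F statistic. The script was tested on simulated data. DESeq2 1.42.0, limma 3.58.1, other scalings and filters, a replicate block and leaving out each library were tried. An exact permutation test of 3 against 3 libraries cannot go below p = 0.1 and was not used.

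Gene positions, exon lengths and GC content came from GENCODE v29, and promoters from RefSeq. The members, lists and motif letters were chosen with earlier results of these data known. All 9 members are described. Of the 3 protein-coding genes on each side of a member, some are named, chosen after their values were seen. From each list the 4 tested genes with the smallest p over the 3 comparisons are named, with paralogues next to a member. Other list genes, those at or near 0 counts and those that passed the filter through 1 genotype included, were named after their values were seen. Sums and floors cover all listed genes. A gene of the lymphoid list that the smallest-p rule names is not reported here. Protein sequences were not used here.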

Additional observations from a re-analysis of the deposited data

How the results depend on the processing

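Calls for the 9 genes kept their direction under all 18 alternatives, and 482 of 486 fold changes stayed on their side of the threshold. The 4 exceptions were all MPO between the mutants, at -0.45 with DESeq2, -0.35 without K148Q replicate 2, -0.40 without K148R replicate 1 and -0.37 without K148R replicate 3. The number of members lower in K148R than in K148Q cells was then 5 in place of 6. Leaving out each library in turn turned the sign of 2 uncalled list genes: GATA2 in K148R against parental cells ranged from -0.11 to 0.40 and PRG2 in the same comparison from -0.24 to 0.19. Of 972 counts per list 75 moved by more than 1.5 times. DESeq2 put the median of all genes at 0.12 between the mutants, over 15635 genes, against 0.02 here.

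The labels do not say that replicate numbers pair the libraries, and the correlations of same-numbered deviations, -0.02 to 0.27 (median 0.01), were not over 0.1 in every pair. K148Q replicates 1 and 3 correlated best with K148R libraries of their own number (0.14 and 0.27), and K148Q replicate 2 with K148R replicate 1 (0.17, against 0.01 for its own number). Libraries of different number reached -0.24 to 0.17. With a replicate block the members' calls were 7 higher and 1 lower in K148Q, 7 and 2 in K148R, and 3 and 6 between the mutants, as without it, and the list genes called were 66, 79 and 76. Calls over all genes went from 6848, 9649 and 9126 to 7262, 9821 and 9410. Depth limits MPO, with 42 to 123 counts per library, and ELANE in parental cells, with 49 to 76.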
